A study of Homo sapiens with 6 samples.

Results

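The mRNA levels of 42 genes that carry out mitosis were examined in Kasumi-1 cells incubated with the histone deacetylase inhibitor I3. Kasumi-1 is a human acute myeloid leukemia cell line with the RUNX1-RUNX1T1 fusion. The genes were chosen by name for what they do in cell division, from the mitotic cyclins to the proteins of the cleavage furrow. Earlier results of these data were known at that time. Each gene was found by its Ensembl identifier among the 29810 genes of the table. Cells of the control group were incubated for 48 h without the inhibitor, with the solvent DMSO at the same concentration according to the methods, and cells of the other group for 48 h with 0.25 μM I3. Each group had 3 libraries of polyadenylated RNA, prepared with a stranded kit. The labels do not say whether the libraries of a group came from separate cultures, so that p-values measure the spread between libraries, which may be technical. Values are FPKM, fragments scaled to transcript length and to the fragments of the library. This scaling left a dependence on GC content that differed between libraries, given below. The 6 libraries held 17500319 to 18193374 reads when reads were rebuilt from FPKM and exon length. The labelled cell line carried its markers, with 7740 to 8612 FPKM of MPO, 198 to 225 FPKM of KIT and 14.1 to 16.97 FPKM of RUNX1T1. Of the markers of other cells, CD3E, CD14 and COL1A1 stayed at or under 0.179 FPKM, while PECAM1 reached 1.54 to 1.96 FPKM and LYZ 4.84 to 11.4 FPKM.

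Mitosis begins when CDK1, bound to cyclin A or cyclin B and freed of inhibitory phosphate by CDC25 phosphatases, phosphorylates its many substrates. Aurora and Polo-like kinases then build the spindle, kinetochores attach the chromosomes to microtubules, and the checkpoint holds the cell until every kinetochore is attached. The anaphase-promoting complex with CDC20 finally marks cyclin B and securin for destruction, separase opens cohesin, and a contractile ring divides the cell. Most of these mRNAs are made in G2 and M phase and are scarce in resting cells, which is why their sum is widely read as a sign of how many cells of a culture divide. Histone deacetylase inhibitors are known to arrest many leukemia cell lines, often with induction of CDKN1A, so the comparison asks whether mRNAs of the mitotic machinery differed after I3. In RNA of a whole culture, fewer cells in mitosis and less RNA per cell cannot be told apart.

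Many genes of this kind share a promoter layout, which is shown here because it did not enter the choice of the members. The CCAAT box is bound by NF-Y. The cell cycle genes homology region, or CHR element, is bound by the MuvB complex, which acts as the DREAM repressor in resting cells and with B-MYB and FOXM1 as an activator in G2. RefSeq promoters on GRCh38.p14, from 250 bases before to 50 bases after a start, were at hand for 36 members (46 promoters). The remaining members are AURKA, BIRC5, BUB3, TPX2, TTK and UBE2C. Below, capitals mark CCAAT boxes (CCAAT or, on the other strand, ATTGG) and CHR elements (TTTGAA on either strand or TTCGAA, which reads alike on both), and each window runs from 150 bases before to 10 bases after the start. CCNB2 and PLK1 show the usual layout, and SPC25 and SPC24 are the members with the smallest p-values below. The windows lie at chr15:59104996-59105155 (plus strand), chr16:23678739-23678898 (plus strand), chr2:168890421-168890580 (minus strand) and chr19:11155773-11155932 (minus strand).
CCNB2: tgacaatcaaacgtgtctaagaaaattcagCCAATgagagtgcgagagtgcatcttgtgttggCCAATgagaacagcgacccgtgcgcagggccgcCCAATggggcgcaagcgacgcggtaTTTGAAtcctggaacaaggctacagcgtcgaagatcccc
PLK1: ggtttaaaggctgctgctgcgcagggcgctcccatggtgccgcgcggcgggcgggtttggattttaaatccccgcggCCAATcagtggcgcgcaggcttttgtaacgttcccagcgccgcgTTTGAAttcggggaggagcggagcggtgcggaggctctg
SPC25: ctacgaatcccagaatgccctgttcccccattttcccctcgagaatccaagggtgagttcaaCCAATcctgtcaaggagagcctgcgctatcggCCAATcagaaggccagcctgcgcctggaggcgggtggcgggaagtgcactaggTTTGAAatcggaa
SPC24: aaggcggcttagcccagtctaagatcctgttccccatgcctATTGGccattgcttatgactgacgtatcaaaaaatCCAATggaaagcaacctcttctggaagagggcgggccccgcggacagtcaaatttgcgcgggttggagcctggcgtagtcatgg

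The CCNB2 window held 3 CCAAT boxes upstream of 1 CHR element, and PLK1 held 1 of each. SPC25 held 2 CCAAT boxes, with the CHR element directly at the start, whereas SPC24 held 2 CCAAT boxes on opposite strands and no CHR element. Of the 46 member promoters, 35 (76.1%) held a CCAAT box, against 34.6% of all 35116 promoters and 35.1% of those of the genes tested. At least 2 boxes were found in 45.7% of member promoters and in 10.8% of all promoters. A CHR element was present in 31 (67.4%), against 16.4% of all promoters and 11.7% of those of tested genes. Both motifs stood together in 56.5% of member promoters (24 genes) and in 6.38% of all. The median first base lay at position -82 over 74 CCAAT boxes and at -28 over 42 CHR elements, counted from the start. The order within each promoter was not counted and varied. In ECT2 a CHR element at -115 lay upstream of a box at -97. KIF2C and CENPE had neither motif in this window. Some genes had more than 1 promoter with overlapping windows, such as PTTG1 and AURKB, so a site could be counted more than once. Matches of letters do not show that a factor was bound.

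All 42 mRNAs were expressed, and most were abundant. Their mean over the 6 libraries ranged from 3.30 FPKM (CDC25C) to 117 FPKM (CKS2), with a median of 20.4 FPKM against 5.24 FPKM over the 12960 tested genes, whose mean reached 0.5 FPKM or more. CKS2 was followed by TOP2A (87.2 FPKM), UBE2C (73.7), CDC20 (70.4), TPX2 (65.1), MKI67 (59.3), CCNB1 (53.8) and CCNA2 (46.2), and the lower end of the order was formed by ECT2 (7.86), CENPE (7.39) and CDC25C. Each of the 42 passed the minimum of 0.5 FPKM, so none was kept only through the group in which it was higher. The count of rebuilt reads behind a value ranged from 184 for CDC25C to 14273 for MKI67. In control libraries the coefficient of variation had a median of 6.48%, against 9.54% over all tested genes, which were not matched for level. It was lowest for KIF4A (1.15%), lay under 5% for 17 members, and exceeded 15% for CENPE (23.1%), HMMR (19.7%) and NUF2 (16.5%).

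**Figure D1:**
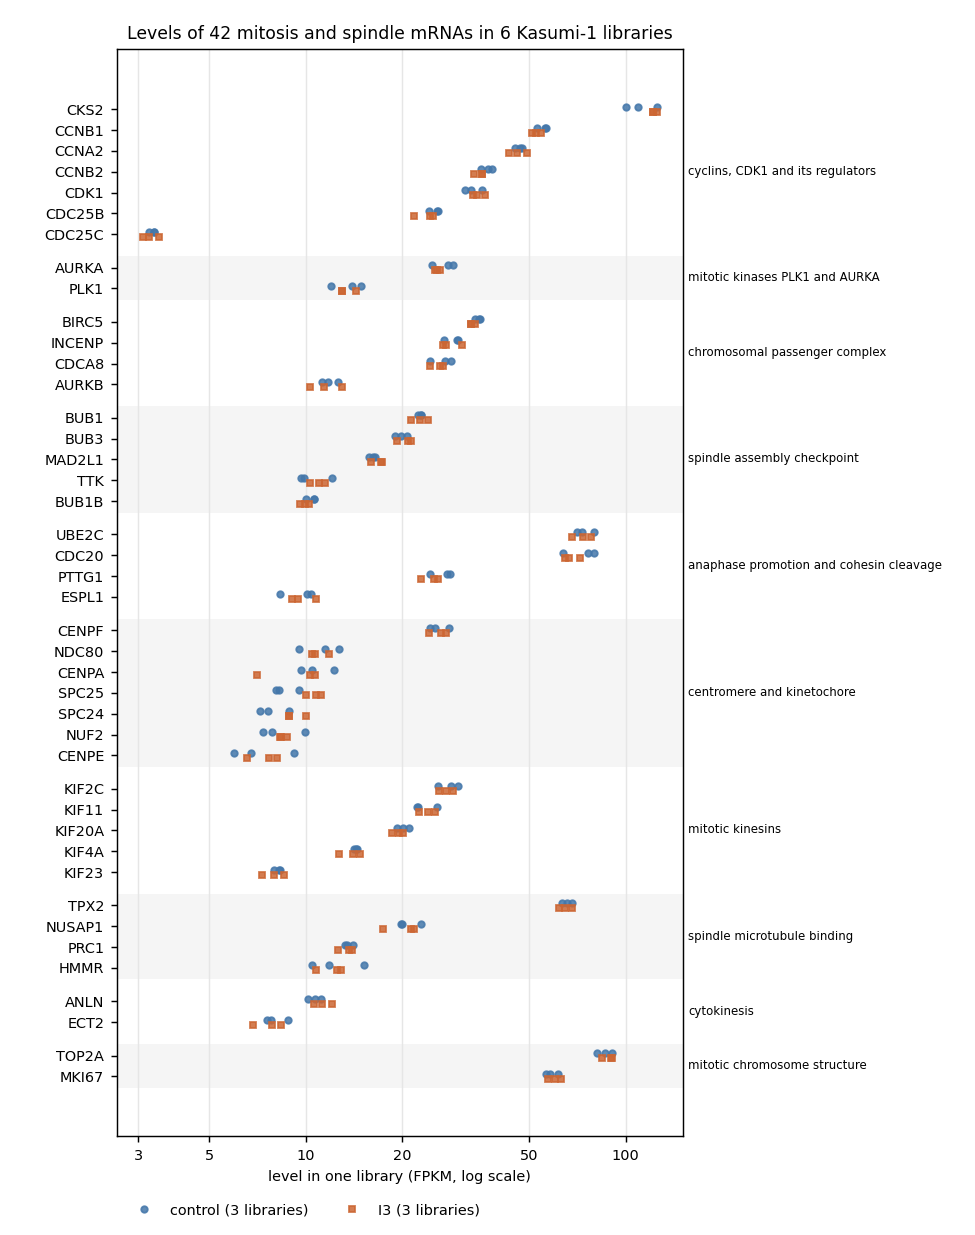
Level of each of the 42 mRNAs in each library (FPKM, log axis), grouped by role and ordered by mean level within a role, with blue circles for the 3 control libraries and orange squares for the 3 I3 libraries. Circles and squares overlap for every gene but SPC25, whose 3 squares lie above its 3 circles.

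No mitotic mRNA was called different between I3 and control. A call required an adjusted p under 0.05 in limma with a log2 fold change of 0.58 or more in size. It was met by 0 of 42 members in either direction, as for the whole table (0% of 12960 genes), and the smallest adjusted p of a member was 0.812. At an unadjusted p under 0.05, 2 members were higher (SPC25 and SPC24) where 2.08% of all tested genes were, and 0 were lower where 2.85% were. voom on rebuilt reads called 0 members after adjustment and left SPC25 alone at the unadjusted p, where 2.15% of all its genes were higher. The 3 I3 values lay above the 3 control values for 1 member, SPC25, against 5.06% of all tested genes, and below them for 0 members, against 4.64%. For the other 41 the groups overlapped.

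The size of the differences was small. The log2 fold change of I3 against control, on the scale of log2(FPKM + 0.5), was below 0.1 in size for 36 members and between 0.1 and 0.2 for CKS2, PTTG1 and CDC20. It exceeded 0.2 only for SPC25, SPC24 and CENPA. The 95% interval of limma stayed within 0.58 of 0 for 41 of 42 members (97.6%), against 81.6% of all tested genes, the exception being CENPA (-0.59 to 0.16). Values below 0 were found for 26 members (61.9%), against 45.8% of all tested genes. The median was -0.022 over members and 0.011 over all tested genes, and the standard deviation across genes was 0.086 against 0.22. Of the members, 41 of 42 lay above the median level of all tested genes. The interval share and the standard deviation were not compared with genes of like level, so these contrasts are not separated from level.

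**Figure D2:**
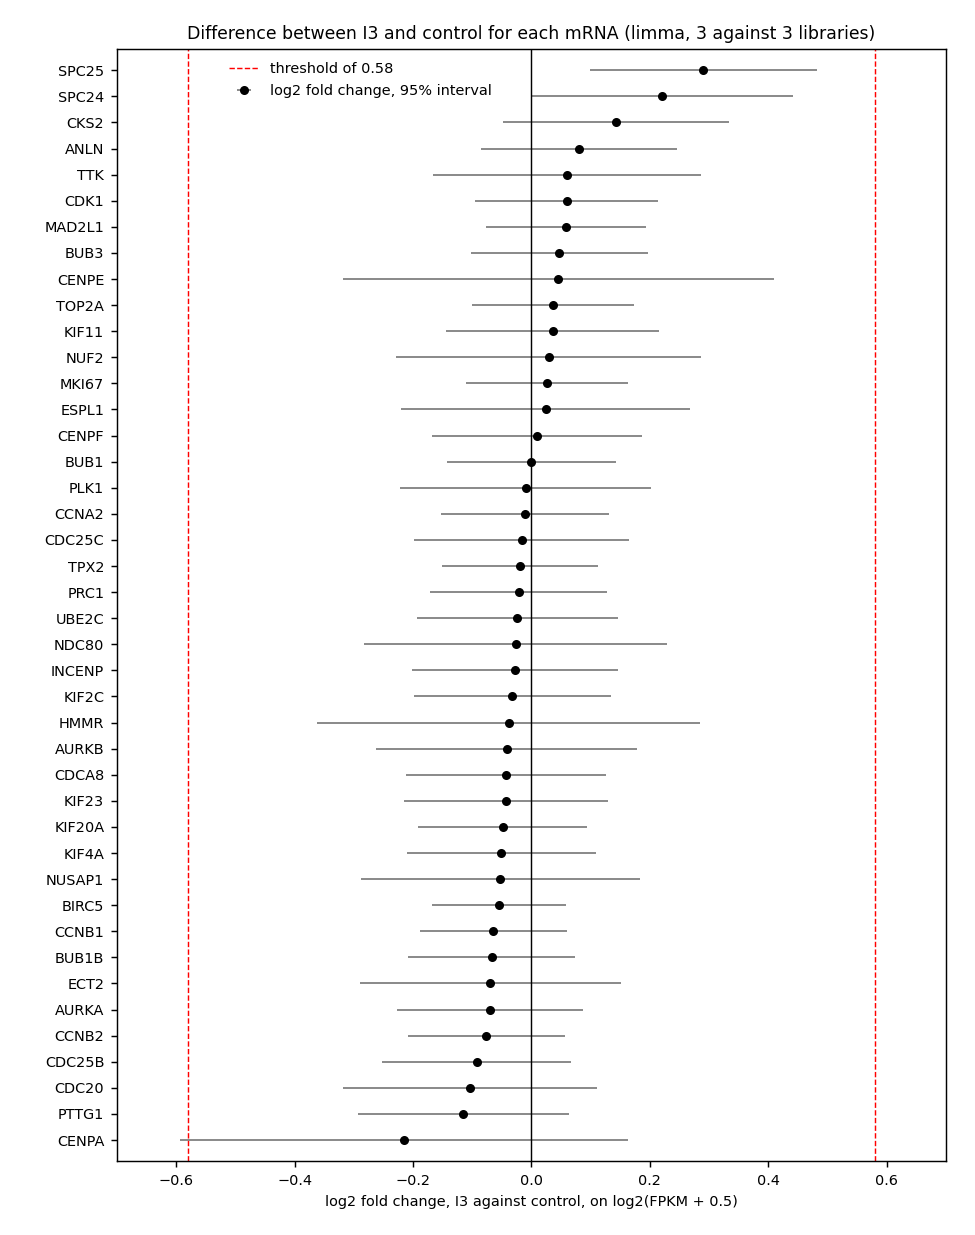
Log2 fold change of I3 against control for each mRNA (points) with its 95% interval from limma (lines), ordered by size, with red dashed lines at the threshold of 0.58. The interval of SPC25 and that of SPC24 lie above 0, and the interval of CENPA alone reaches past a red line.

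The engine of mitotic entry was present at like levels in both groups. CCNB1, which encodes cyclin B1 (chr5:69167010-69178245 on hg38), had 52.7, 55.8 and 56.3 FPKM in control libraries 1, 2 and 3 and 54.3, 52.5 and 50.9 FPKM in I3 libraries 1, 2 and 3. The lowest value was an I3 library, but the ranges overlapped, and means of 54.97 ± 1.95 and 52.6 ± 1.68 FPKM (SD, n = 3 each) gave a log2 fold change of -0.064 (95% interval -0.19 to 0.060). CDK1, the kinase that cyclins A and B activate (chr10:60778331-60794852), had 35.7, 32.8 and 31.4 FPKM in control and 36.3, 33.3 and 34.4 FPKM in I3 libraries. Control 1 and I3 1 were the highest of their groups, and the log2 fold change was 0.060 (-0.095 to 0.21). CKS2, a small subunit that binds CDK1, was the most abundant member, with 125, 100.2 and 109 FPKM in control and 125, 121 and 121 FPKM in I3 libraries. Controls 2 and 3 lay below every I3 library while control 1 matched the highest of them, so that the groups overlapped at a log2 fold change of 0.14 (-0.048 to 0.33). It was 0.23 without control 1 and 0.069 without control 2. The ranges of CCNA2 (cyclin A2) were 45.2 to 47.3 FPKM in control and 43.3 to 49.1 FPKM in I3 libraries, and those of CCNB2 (cyclin B2) were 35.2 to 38.3 and 33.5 to 35.7 FPKM, at log2 fold changes of -0.010 and -0.076. The phosphatases CDC25B (24.3 to 25.97 and 21.8 to 24.96 FPKM) and CDC25C (3.24 to 3.36 and 3.09 to 3.49 FPKM) overlapped as well, at -0.092 and -0.016. Of these 7 genes 5 had a value below 0, with a median of -0.016.

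Kinases that build and correct the spindle showed the same picture. PLK1 (chr16:23677656-23690367), which drives centrosome maturation and mitotic exit, had 11.98, 14.9 and 13.9 FPKM in control and 13.03, 14.4 and 12.98 FPKM in I3 libraries. All I3 values fell inside the control range, at a log2 fold change of -0.010 (-0.22 to 0.20). AURKA (chr20:56369389-56392337), the centrosomal Aurora kinase, had 27.9, 24.9 and 28.8 FPKM in control and 25.8, 26.4 and 25.3 FPKM in I3 libraries. Its I3 values were closely spaced within the control range, and the log2 fold change was -0.070 (-0.23 to 0.087). TPX2, which activates AURKA on spindle microtubules, had 67.7, 63.2 and 65.5 FPKM in control and 64.5, 61.7 and 67.7 FPKM in I3 libraries. The groups overlapped at a log2 fold change of -0.019 (-0.15 to 0.11).

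The chromosomal passenger complex, which releases wrong attachments and later marks the cleavage site, consists of a kinase, AURKB, and the scaffold proteins INCENP, survivin (BIRC5) and borealin (CDCA8). AURKB had 11.8, 11.2 and 12.6 FPKM in control and 11.4, 12.99 and 10.3 FPKM in I3 libraries. Both the highest and the lowest of these values came from I3 libraries, at a log2 fold change of -0.042 (-0.26 to 0.18). BIRC5 had 34.9, 34.7 and 33.8 FPKM in control and 33.9, 32.8 and 32.9 FPKM in I3 libraries. I3 1 lay just above control 3, so that the groups overlapped at -0.055 (-0.17 to 0.059). INCENP spanned 27.01 to 29.9 FPKM in control and 26.8 to 30.9 FPKM in I3 libraries, and CDCA8 24.5 to 28.4 and 24.5 to 26.9 FPKM, at -0.028 and -0.043. All 4 subunits had values below 0, none of which passed the test, with a median of -0.042.

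The spindle assembly checkpoint was represented by BUB1, BUB1B, BUB3, MAD2L1 and TTK. BUB1, a kinetochore kinase that recruits the other checkpoint proteins, had 22.9, 22.4 and 22.95 FPKM in control and 22.8, 21.3 and 24.1 FPKM in I3 libraries. The control values spanned less than 1 FPKM, the I3 values lay on both sides of them, and the log2 fold change was 0.00018 (-0.14 to 0.14). BUB1B encodes BUBR1, which binds and blocks CDC20, and had 10.01, 10.6 and 10.6 FPKM in control and 10.2, 9.58 and 9.93 FPKM in I3 libraries. Its I3 values reached lower than any control, but the groups overlapped at -0.067 (-0.21 to 0.074). The other checkpoint genes had log2 fold changes of 0.047 for BUB3, which carries BUB1 and BUBR1 to kinetochores, 0.058 for MAD2L1, the inhibitor of CDC20, and 0.060 for the upstream kinase TTK.

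Genes of anaphase onset included the 2 largest values below 0 outside the kinetochore. CDC20, the activator that the checkpoint restrains, had 63.6, 79.6 and 76.3 FPKM in control and 66.4, 71.996 and 64.8 FPKM in I3 libraries. Control 1 was the lowest of all 6 libraries and the other controls exceeded each I3 library, so that the groups overlapped at a log2 fold change of -0.10 (-0.32 to 0.11). It was -0.20 without control 1 and -0.041 without control 2. UBE2C, the ubiquitin-conjugating enzyme of the anaphase-promoting complex, had 70.4, 79.6 and 72.96 FPKM in control and 73.5, 78.05 and 67.8 FPKM in I3 libraries. These groups overlapped at -0.024 (-0.19 to 0.15). PTTG1 (securin, the inhibitor of separase) had 28.2, 27.6 and 24.5 FPKM in control and 25.9, 22.98 and 25.2 FPKM in I3 libraries. I3 2 was the lowest and control 3 the next above it, and the log2 fold change was -0.11 (-0.29 to 0.063). PTTG1 has near-identical copies elsewhere in the genome, which makes its value uncertain where counting could split reads. ESPL1, separase itself, spanned 8.32 to 10.4 FPKM in control and 9.04 to 10.8 FPKM in I3 libraries at 0.025.

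The kinetochore held the only members with a p-value under 0.05, and both belong to the NDC80 complex, the 4-subunit rod that grips microtubules. Its outer pair is NDC80 and NUF2, and its inner pair, which docks on the centromere, is SPC24 and SPC25. SPC25 (chr2:168834132-168913371, minus strand) had 8.27, 9.52 and 8.10 FPKM in control and 10.8, 11.2 and 10.002 FPKM in I3 libraries. Every I3 library lay above every control library, with means of 8.63 ± 0.775 and 10.7 ± 0.597 FPKM (SD, n = 3 each). The log2 fold change was 0.29 (0.10 to 0.48), with an unadjusted p of 0.00859 and an adjusted p of 0.812 in limma. SPC24 (chr19:11131520-11155808, minus strand) had 7.60, 8.89 and 7.19 FPKM in control and 10.02, 8.87 and 8.89 FPKM in I3 libraries. I3 1 stood apart at the top, whereas the other I3 libraries were level with control 2, so that the groups overlapped. Here the log2 fold change was 0.22 (0.0010 to 0.44), with an unadjusted p of 0.0492 and an adjusted p of 0.998 in limma.

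For the outer pair of the same complex, each I3 value fell between the lowest and the highest control. NDC80 had 12.7, 9.52 and 11.5 FPKM in control and 11.8, 10.4 and 10.7 FPKM in I3 libraries (-0.027, -0.28 to 0.23). NUF2 had 9.94, 7.34 and 7.82 FPKM in control and 8.73, 8.31 and 8.39 FPKM in I3 libraries (0.029, -0.23 to 0.29). The difference between the inner and the outer pair was not tested. SPC25 remained at an unadjusted p under 0.05 with each library left out, and SPC24 only without control 2 (0.16 to 0.30 on the log2 scale over the 6 fits). After correction of each library for GC content, SPC25 had 0.23 (unadjusted p = 0.0749 in limma) and SPC24 had 0.25 (unadjusted p = 0.0229 in limma).

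Among the other centromere genes, CENPF, a large fibrous protein of the outer kinetochore and the most abundant member here, had 28.1, 24.4 and 25.3 FPKM in control and 26.5, 24.2 and 27.5 FPKM in I3 libraries. The groups nearly coincided (0.0094, -0.17 to 0.19). CENPA, the histone H3 variant that marks the centromere, had 12.2, 9.69 and 10.5 FPKM in control and 10.7, 10.3 and 7.04 FPKM in I3 libraries. I3 3 was the lowest library while I3 1 and I3 2 lay inside the control range, at a log2 fold change of -0.21 (-0.59 to 0.16). CENPE, a kinetochore motor, had 9.21, 5.96 and 6.76 FPKM in control and 8.15, 6.58 and 7.68 FPKM in I3 libraries, with control 1 above all others and a log2 fold change of 0.045 (-0.32 to 0.41).

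The groups overlapped for each of the motor proteins and microtubule binders. KIF2C, a microtubule depolymerase at centromeres, had 25.9, 29.9 and 28.5 FPKM in control and 26.1, 28.9 and 27.4 FPKM in I3 libraries. KIF20A, a motor of the central spindle, had 19.2, 20.1 and 21.1 FPKM in control and 19.5, 20.2 and 18.6 FPKM in I3 libraries. Both overlapped between groups, at -0.032 (-0.20 to 0.13) and -0.049 (-0.19 to 0.094). The remaining motors were KIF11, which pushes spindle poles apart (0.036), KIF23 of the central spindle (-0.043) and the chromosome-bound KIF4A (-0.051). NUSAP1, which bundles spindle microtubules, had 22.9, 19.95 and 19.9 FPKM in control and 21.3, 17.5 and 21.8 FPKM in I3 libraries. I3 2 was the lowest library and the other I3 values lay inside the control range (-0.052, -0.29 to 0.18). HMMR, a microtubule-associated protein, had 15.2, 10.4 and 11.9 FPKM in control and 12.5, 10.8 and 12.9 FPKM in I3 libraries. Control 1 was the highest of all and the controls spread widely, at a log2 fold change of -0.038 (-0.36 to 0.29). PRC1, which cross-links the midzone, had a value of -0.021. Exons of NUSAP1 and of PRC1 overlap another annotated gene on the same strand, as do those of BUB1B and CENPA, so reads could have been split there.

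At the end of division, ANLN, a scaffold of the contractile ring, had 11.1, 10.2 and 10.7 FPKM in control and 11.3, 10.6 and 12.1 FPKM in I3 libraries. I3 3 was the highest of the 6, and the groups overlapped at 0.080 (-0.085 to 0.25). ECT2, the exchange factor that switches on RhoA at the cell equator, spanned 7.58 to 8.81 FPKM in control and 6.83 to 8.35 FPKM in I3 libraries at -0.069 (-0.29 to 0.15). TOP2A (chr17:40388516-40417950), which untangles sister chromatids, had 90.5, 81.5 and 86.2 FPKM in control and 90.5, 84.5 and 89.7 FPKM in I3 libraries. MKI67 (chr10:128096659-128126385), the surface coat of mitotic chromosomes and the antigen of the Ki-67 proliferation stain, had 56.5, 58.2 and 61.5 FPKM in control and 62.5, 56.99 and 59.96 FPKM in I3 libraries. Neither differed beyond its spread, with log2 fold changes of 0.036 (-0.10 to 0.17) and 0.027 (-0.11 to 0.16).

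Within both groups the levels of the members varied between libraries with the base composition of the transcripts. GC content of the members ranged from 35.3% (CENPE) to 59.9% (INCENP), with a median of 45.5%. The deviation of a member from its mean over the 6 libraries had a Spearman correlation with GC content of -0.654 in control 1, -0.497 in I3 1 and -0.616 in I3 3. The sign was opposite in control 2 (0.716), control 3 (0.572) and I3 2 (0.560). These are descriptions over 42 genes that share libraries, and the same signs were found over all tested genes, at -0.446 to -0.232 in the former and 0.262 to 0.446 in the latter libraries. Of the 9 members with a GC content under 40%, 8 were highest in control 1 among the controls, and of the 7 members at 55% or more, 5 were lowest there. The median deviation of the AT-rich members was 0.16 on the log2 scale in control 1 and -0.10 in control 2, and that of the GC-rich members was -0.14 and 0.083.

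**Figure D3:**
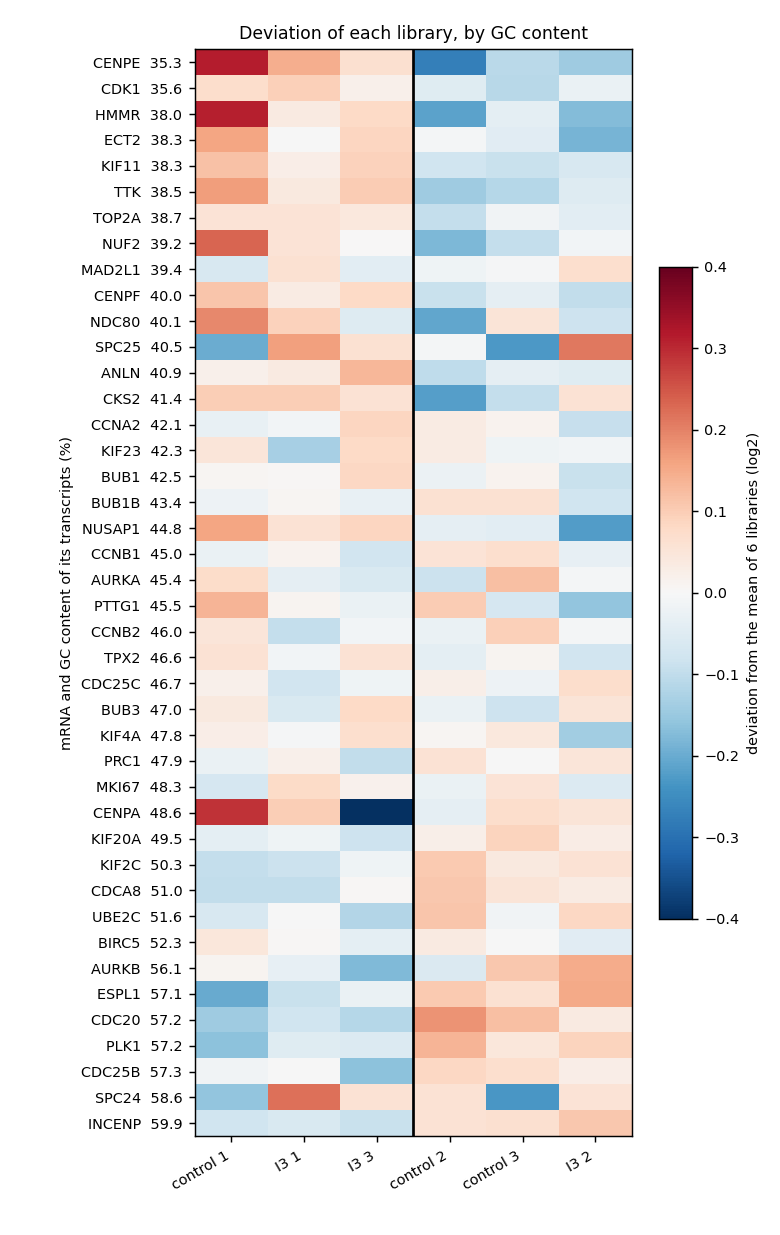
Heatmap of the deviation of each of the 42 mRNAs from its mean over the 6 libraries (log2 scale), red above and blue below it. Rows are ordered by the GC content of the transcripts (percent). Columns left of the line are control 1, I3 1 and I3 3, and right of it control 2, control 3 and I3 2. AT-rich mRNAs tend to lie above their mean on the left and GC-rich mRNAs on the right, so that both groups hold libraries of either kind.

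Since 2 of 3 controls and 1 of 3 I3 libraries had the positive correlation, the comparison was repeated within each kind. Each part thus set 1 library of a group against 2 of the other. In the libraries with a positive correlation 23 of 42 members were lower with I3 (median -0.010), and in those with a negative one 26 were (median -0.017). The sign matched in 21 of 42 members, of which 14 were lower and 7 higher in both. The same counts were not taken over all tested genes. The kinds of library were defined from these same data, so the counts only describe the members. SPC25 had 0.33 and 0.31, with a sign fixed beforehand because every I3 value lay above every control value. SPC24 had 0.14 and 0.30, and both genes had been picked by their p in these same libraries. With GC correction, 33 members had a value below 0 at a median of -0.044, against 49.2% and 0.0015 for all tested genes, and 0 members were called at the adjusted p. The correlation of the log2 fold change with GC content over the members went from -0.362 to 0.129.

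Mitosis genes outside the 42 were read from 7 further lists. Of 120 genes, 118 passed the minimum, 52 had a value below 0, and the median was 0.0086, against -0.022 over the 42 members and 0.011 over all tested genes. limma called 0 of them at the adjusted p (smallest 0.845). At an unadjusted p under 0.05 it put 3 lower and 1 higher, where 2.85% and 2.08% of all tested genes were. Cohesin and shugoshin genes, which hold sister chromatids together, had 3 of 12 values below 0 and a median of 0.030. Condensin genes, which compact chromosomes, had 3 of 8 (0.0048). Subunits of the anaphase-promoting complex with FZR1 had 8 of 17 (0.0044), other kinetochore genes 14 of 31 (0.021), and other spindle and cytokinesis genes 13 of 24 (-0.0026). Other mitotic kinases and phosphatases had 5 of 11 tested (0.0050), and regulators of G2/M transcription 6 of 15 tested (0.037).

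The genes of these lists at an unadjusted p under 0.05 were WEE1, MYBL2, CENPB and RBL1. WEE1, the kinase that holds CDK1 inactive, had 8.43, 8.18 and 7.85 FPKM in control and 7.49, 6.30 and 6.23 FPKM in I3 libraries. All I3 values lay below all control values, as they did for 4.64% of all tested genes. The log2 fold change was -0.27 (-0.47 to -0.076), with an unadjusted p of 0.0134 and an adjusted p of 0.845 in limma. MYBL2, or B-MYB, which joins the MuvB complex at CHR elements like those shown above, had 95.98, 114 and 105 FPKM in control and 95.6, 84.7 and 79.9 FPKM in I3 libraries. The I3 values again lay below the control values, though I3 1 and control 1 were nearly level, at -0.27 (-0.48 to -0.066), with an unadjusted p of 0.0164 and an adjusted p of 0.862 in limma. FOXM1, its partner in G2, had 15.7, 18.6 and 17.04 FPKM in control and 15.9, 17.6 and 15.1 FPKM in I3 libraries. Its groups overlapped at -0.076 (-0.28 to 0.12).

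CENPB, which binds a repeat in centromeric DNA, had 40.3, 47.8 and 46.1 FPKM in control and 41.7, 38.4 and 31.9 FPKM in I3 libraries. I3 1 lay above control 1, so that the groups overlapped at -0.26 (-0.52 to -0.0049), with an unadjusted p of 0.0467 and an adjusted p of 0.998 in limma. RBL1, the p107 pocket protein of repressor complexes, had 6.48, 5.78 and 5.85 FPKM in control and 7.21, 6.40 and 7.83 FPKM in I3 libraries. It overlapped too, at 0.22 (0.013 to 0.43), with an unadjusted p of 0.0406 and an adjusted p of 0.998 in limma. With single libraries left out, the unadjusted p of MYBL2 ran from 0.00629 to 0.0581, exceeding 0.05 without control 2 and without I3 3, and that of WEE1 from 0.00315 to 0.0487. The same range was 0.0193 to 0.137 for CENPB and 0.0141 to 0.136 for RBL1. CENPB, at a GC content of 66.2%, had -0.17 with GC correction (unadjusted p = 0.0754 in limma). With the sign of the GC correlation of the library as a term, its unadjusted p was 0.0904 in limma.

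**Figure D4:**
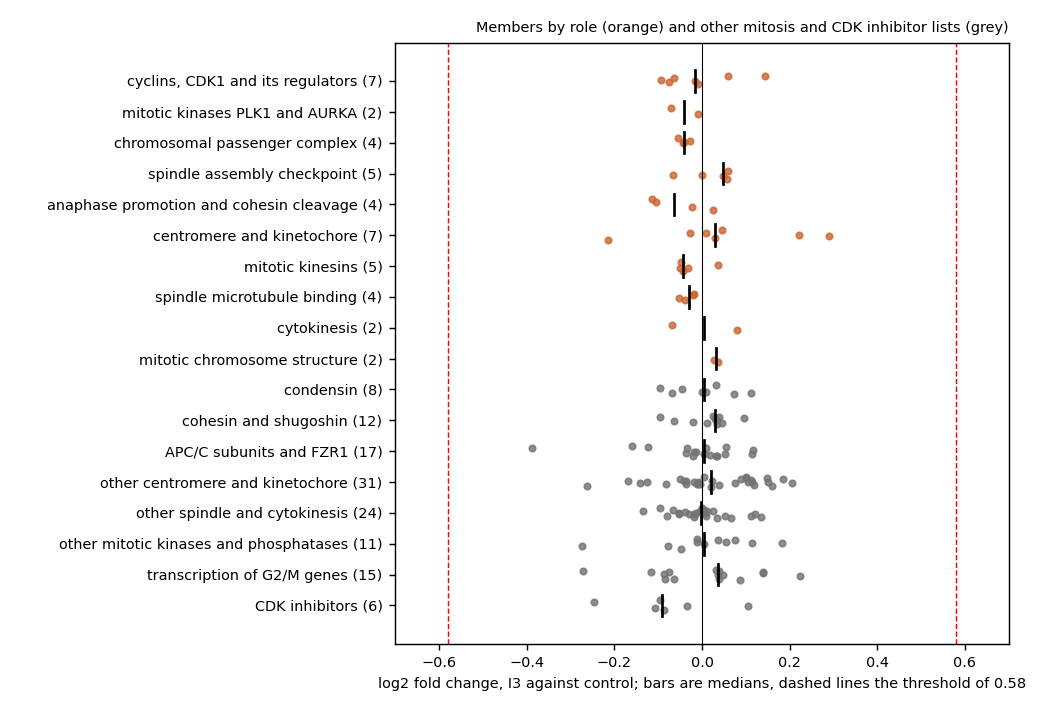
Log2 fold change of I3 against control for the genes of each mitosis list and of the CDK inhibitors, 1 point per tested gene, with the median of each list. Most points lie within 0.2 of 0 in every list, and no point passed the adjusted p.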

How the data were processed

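Polyadenylated RNA of Kasumi-1 cells was measured by mRNA-seq in 6 libraries (3 control, 3 with 0.25 μM I3). The authors deposited 1 FPKM value per gene and library, with no read counts. Submitters' processing notes name Trimmomatic, HISAT2, Cufflinks, HTSeq and hg38, with neither annotation nor strand setting of the counting, which were not given in the sources. The compound is I3 in the labels, and the table is named for I13. Labels and methods give 48 h, a legend a longer time.

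Identifiers were matched to GENCODE release 29 (29703 of 29810). FPKM × exon length gave whole reads within 0.1 in every library for 95.8% of 26519 genes above 0. limma 3.58.1 in R 4.3.3 (lmFit, eBayes with trend, two-sided) took log2(FPKM + 0.5) of the 12960 genes whose mean reached 0.5 FPKM, with Benjamini-Hochberg adjustment. Calls used the study's thresholds, 0.05 for the adjusted p and 0.58 for the size of the log2 fold change. The study applied them with DESeq, a different test, and reported genes in both directions, so the calls here are not the study's. The procedure was tested on simulated data. Alternatives were other pseudocounts, minimums and scalings, eBayes without trend, a replicate block, a GC correction (lowess, span 0.3), library cluster as a term, voom on genes with a mean of at least 10 rebuilt reads, and single libraries left out. Tables were made with pandas 2.3.3 and correlations with scipy 1.17.1 in Python 3.11.15, and plots with matplotlib 3.10.9. No libraries of the same group agreed within sampling noise.

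The members and lists were chosen with earlier results of these data known. Values in every library are given for CDK1, CCNB1, PLK1, AURKA, AURKB, BIRC5, CDC20, MKI67 and TOP2A, for the most abundant member and the member with the smallest unadjusted p of each role, for members with an unadjusted p under 0.05, and, outside the members, for FOXM1, MYBL2, CDKN1A and genes with such a p. CENPA, CENPE, HMMR, NDC80, NUF2, CDKN1B and CDKN2C were added after their values were seen. Some items of the marker and overlap lists are not reported here.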

Additional observations from a re-analysis of the deposited data

How the results depend on the processing

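0 members were called at the adjusted p under any of 19 alternatives. In the whole table, 1 gene was called without control 1, 2 without I3 1 and 1 without I3 2, none of them a member. With 3 libraries a group, a difference is bounded only by the intervals given. The count of members higher at an unadjusted p under 0.05 was 1 with no minimum FPKM, median-of-ratios scaling, quantile normalization, eBayes without trend, the replicate block, GC correction, library cluster as a term and voom. That member was SPC24 with GC correction and SPC25 in the other settings, where 1.87% to 2.8% of all genes were higher. The count lower was 1 with GC correction (ECT2), where 453 of 12960 genes were, and 3 with library cluster as a term (ECT2, NUSAP1, PTTG1), where 488 were. With single libraries left out it was 0 to 1 lower (CDC20 without control 1) and 1 to 2 higher (CKS2 and SPC25 without control 1, where 7.30% of all genes were higher and 3.66% lower, and SPC24 and SPC25 without control 2, where 1.70% were higher). The unadjusted p of CENPB lay above 0.05 with no minimum FPKM, quantile normalization, eBayes without trend, the replicate block, GC correction and the cluster term (p of 0.0506 to 0.123, the latter with GC correction and block together), and that of RBL1 with eBayes without trend (0.0530). Groups did not overlap for 2 members higher and 1 lower after rescaling to TPM (5.36% and 4.12% of all genes). The count lower was 1 with median-of-ratios scaling (5.18%) and 4 of 42 with GC correction (5.62%). It was 0 for the FPKM values as deposited. The median over members was -0.0064 with quantile normalization, -0.044 with GC correction, with or without the block, and -0.022 to 0.0065 with libraries left out. Without I3 2, 20 of 42 members had a value below 0.

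Of 531 values of 28 named genes under alternatives, 484 kept their direction, and 16 genes never changed it. PLK1 had 6.6e-05 with TPM, 0.0022 with quantile normalization, 0.011 with GC correction and 0.056 with the cluster term. With median-of-ratios scaling, GC correction and cluster term, CENPF had -0.00043, -0.051 and -0.045, and BUB1 had -0.010, -0.044 and -0.024. TPX2 had 0.0046 with quantile normalization, and TOP2A and CDK1 had -0.033 and -0.031 with GC correction. UBE2C, AURKB and KIF2C had 0.019, 0.0029 and 0.014 with the cluster term. Leaving out single libraries gave -0.0055 to 0.061 for MKI67, -0.11 to 0.047 for NUSAP1, -0.053 to 0.015 for TPX2, -0.26 to 0.086 for CDKN1A, -0.033 to 0.067 for CENPF, -0.0022 to 0.073 for TOP2A, -0.042 to 0.045 for BUB1, -0.071 to 0.029 for UBE2C, -0.088 to 0.012 for KIF2C, -0.095 to 0.056 for PLK1 and -0.13 to 0.036 for AURKB. The cause was not tested. Libraries of the same number did not all deviate together (correlations of 0.063, 0.15 and -0.024), so the numbers were not taken as a pairing, and the replicate block left SPC25 as the 1 member at an unadjusted p under 0.05.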

Other observations

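CDK inhibitors, the brakes of the cell cycle engine, were read beside the mitotic genes. Of 7 genes 6 passed the minimum, 5 had a log2 fold change below 0, and 0 reached an unadjusted p under 0.05 in limma. CDKN1A, which encodes p21 and is a usual target of histone deacetylase inhibitors, was low in all libraries, with 2.005, 1.09 and 1.35 FPKM in control and 1.78, 1.31 and 0.955 FPKM in I3 libraries. Control 1 was highest and I3 3 lowest, and the log2 fold change was -0.10 (95% interval -0.62 to 0.43). CDKN1B, or p27, had 53.5, 41.8 and 48.3 FPKM in control and 51.7, 47.1 and 55.5 FPKM in I3 libraries. CDKN2C, or p18, had 52.5, 50.1 and 50.1 FPKM in control and 50.96, 48.9 and 43.97 FPKM in I3 libraries. Their groups overlapped, at 0.11 (-0.13 to 0.34) and -0.088 (-0.24 to 0.067). CDKN2A had values of 3.11 to 4.97 and 2.97 to 4.54 FPKM, and CDKN2B was at or near 0 in every library.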
